A study of Mus musculus with 24 samples.

Results

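This report describes what loss of Irf5 changed in resting mouse dendritic cell cultures, before any stimulus. The arrays were chosen by sample title: 3 arrays of unstimulated Irf5-KO cells and 3 arrays of unstimulated WT cells, 6 of the 24 arrays of the series. Total RNA was hybridised in 1 colour to Agilent mouse arrays. Both genotypes were on a C57BL/6 background. Bone marrow cells were grown for 9 days with human Flt3 ligand at 100 ng/ml, a growth factor that yields plasmacytoid and conventional dendritic cells together, and both groups were left without stimulus. The series also holds cells that lack the Src-family kinase Lyn (Lyn-KO) and cells that lack both genes (DKO), and each genotype with 150 nM of the synthetic DNA CpG-B for 6 h. DKO and Lyn-KO arrays, which share no array with the 6, were used here to look at the loss of Irf5 a second time. The labels call the 3 arrays of a group biological replicates and number them (Irf5-KO array 1 is replicate 1 of that group) and do not say how Irf5 was disrupted.

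Irf5 is a transcription factor that acts downstream of Toll-like receptors and their adaptor Myd88. On activation it moves into the nucleus and drives inflammatory cytokine and interferon genes, and in resting cells it is largely held in the cytoplasm. The integrated stress response, which takes up much of what follows, is a separate pathway: kinases that sense amino acid shortage or unfolded protein slow translation, the transcription factor Atf4 is then made, and Atf4 switches on genes of amino acid synthesis and transport.

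Levels below are log2 signals relative to the 75th percentile of the array, so a level of 0 equals that percentile, and levels are compared only for 1 probe between arrays. Changes are log2 fold changes of Irf5-KO over WT with the standard error of a limma fit (3 arrays per group, fitted with all 24 arrays). A feature is a gene or an unnamed transcript, and it is called at an adjusted p under 0.05 (limma, 2-sided, Benjamini-Hochberg over all features). Between 42.93% and 53.75% of the spots of the 6 arrays were well above background, none was saturated, and the 3 arrays per group limit the precision. Marker genes of the cultured cells were present: Siglech, of plasmacytoid dendritic cells, stood at 7.69, 7.5 and 7.55 in Irf5-KO and 7.83, 7.31 and 7.68 in WT arrays. Clec9a, of type 1 conventional dendritic cells, stood at 3.49, 3.71 and 3.74 in Irf5-KO and 3.66, 3.68 and 3.52 in WT arrays. The groups overlapped for both genes.

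The targeted gene gave no clear check of the labels. Irf5, measured by 1 probe, stood at 4.42, 4.39 and 4.49 in Irf5-KO arrays and 4.67, 4.79 and 4.73 in WT arrays. The groups did not overlap, but the change of -0.30 ± 0.09 was not called (adjusted p = 0.161), and it passed when only the 12 unstimulated arrays were fitted (adjusted p = 0.0468) or arrays were weighted (adjusted p = 0.0375). The sources used here do not place the probe relative to what was disrupted, so the probe is no check on the labels, and Irf5-KO below means the arrays that carry this label. Lyn was not called (0.13 ± 0.09, adjusted p = 0.689). Dock2, a gene of leukocyte migration in which some Irf5-deficient mouse colonies are known to carry a second mutation, was at 0.07 ± 0.09 (adjusted p = 0.913).

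Few features were called in resting Irf5-KO against WT cells, and most of these differed by less than 2-fold. Of 20201 features, 149 were called (0.738%), 64 higher (0.317%) and 85 lower (0.421%), and 2111 passed at an unadjusted p under 0.05. With each array scaled instead to its median over the probes detected throughout, 132 were called, 71 higher and 61 lower. The higher ones had a median change of 0.82 and included genes of the integrated stress response, Il10, Irf4 and a run of glutathione transferase genes. The lower ones had a median change of -0.70 and included the chemokines Ccl5, Ccl4 and Xcl1, the interferon-induced genes Ifit2 and Ifih1, and the receptor genes Ifnlr1 and Cd300e. Changes of at least 2-fold were 21 higher and 21 lower. The groups did not overlap for any of the 149, as for 17.9% of all features.

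These calls lean on the spread of all 24 arrays. With only the 6 arrays fitted, 1 feature was called, Syt10, and every other gene described as called below lost its call. With the 12 unstimulated arrays the count was 47, of which 35 were among the 149. It was 77, 46 and 97 without Irf5-KO array 1, 2 or 3 and 53 without WT array 1. Asns, Trib3, Il10, Cd70, Irf4, Sytl3, Gstt2, Ccl5, Xcl1, Hsd11b1, Fam89a, Cd300e, Arf5, Syt10 and Entpd4 kept their calls when any 1 of the 6 arrays was left out. For most of the other called genes, the arrays whose removal ended the call are named below with the change found then.

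The clearest group was the integrated stress response. Of 47 tested genes of an Atf4 target list, 11 rose and 0 fell, which is 23.4% against 0.317% of all features called higher. The median change of the list was 0.24, against -0.02 for all features. Between same-numbered arrays 1, 2 and 3 it was 0.24, 0.18 and 0.12. Of the 47, 41 were above 0, as were 8696 of the 20201 features. The mean level of the list was 1.74, 1.82 and 1.72 in Irf5-KO arrays and 1.30, 1.45 and 1.48 in WT arrays, so that the groups did not overlap. The list was chosen with earlier results of these data known.

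The promoters of the 3 called list members that hold the letters read by Atf4 are shown because these genes changed together. They run from 250 bases before to 50 bases after the start of the gene (RefSeq, GRCm38.p6), 5′ to 3′ on the strand of the gene, with the motif TGATGNAA, searched on both strands, in capitals.
Asns, chr6:7693160-7693459, minus strand: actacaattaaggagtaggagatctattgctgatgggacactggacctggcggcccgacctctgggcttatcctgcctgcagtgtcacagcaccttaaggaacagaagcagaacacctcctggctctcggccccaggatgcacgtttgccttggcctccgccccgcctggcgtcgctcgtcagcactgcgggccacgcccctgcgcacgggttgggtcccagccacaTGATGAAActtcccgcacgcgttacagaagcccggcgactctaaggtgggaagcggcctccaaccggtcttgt
Trib3, chr2:152344011-152344310, minus strand: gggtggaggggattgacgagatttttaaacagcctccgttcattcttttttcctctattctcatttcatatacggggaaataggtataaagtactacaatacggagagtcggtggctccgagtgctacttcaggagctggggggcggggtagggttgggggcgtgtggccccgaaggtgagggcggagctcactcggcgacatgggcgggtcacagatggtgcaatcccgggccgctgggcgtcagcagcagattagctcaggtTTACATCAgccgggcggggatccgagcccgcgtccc
Chac1, chr2:119350992-119351291, plus strand: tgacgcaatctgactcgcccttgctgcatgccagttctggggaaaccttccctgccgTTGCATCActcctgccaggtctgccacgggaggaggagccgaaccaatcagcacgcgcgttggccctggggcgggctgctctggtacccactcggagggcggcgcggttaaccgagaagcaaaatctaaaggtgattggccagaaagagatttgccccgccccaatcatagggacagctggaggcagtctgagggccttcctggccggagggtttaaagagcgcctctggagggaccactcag
The match began 23 bases before the start in Asns, 14 bases after it in Trib3 and 193 bases before it in Chac1, and those of Trib3 and Chac1 read the motif on the opposite strand. The motif was found in 3 of the 8 called list members with a promoter in the table and in 12 of the 34 members that were not called (37.5% and 35.3%), against 4.06% of 27025 promoters. Among the called higher features outside the list it was found in 1 of 32. A match is a description of letters and not of a bound site.

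Among enzymes of amino acid metabolism, Asns, which makes asparagine, stood at 3.14, 3.36 and 3.32 in Irf5-KO arrays and 2.00, 2.10 and 2.33 in WT arrays. All Irf5-KO arrays lay above all WT arrays, a rise of 1.13 ± 0.11 or 2.19-fold (adjusted p = 6.05e-05). Bcat1, which transaminates branched-chain amino acids, and Cth, which makes cysteine, rose by 1.47 ± 0.29 and 1.47 ± 0.27 but were dim, and Cth was not well above background on any WT array, which makes it at least 1.59-fold higher. After normexp background correction neither was called (0.44 and 0.42), and both lost their calls without Irf5-KO array 1 or 2 or WT array 1 (1.04 to 1.56 over both genes), Bcat1 also without Irf5-KO array 3 (1.49). Psat1, of serine synthesis, was at 0.34 ± 0.08 (adjusted p = 0.0514).

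Of the transporters, Slc7a3, which imports arginine and lysine, stood at -0.74, -0.77 and -0.70 in Irf5-KO arrays and -2.00, -1.77 and -1.58 in WT arrays. It rose by 1.05 ± 0.18 (adjusted p = 0.00756), a call that ended without WT array 1 (0.94). Slc6a9, which imports glycine, rose by 0.87 ± 0.16, and was not called without Irf5-KO array 2 or 3 or WT array 1 (0.83, 0.78 and 0.84).

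Regulators of the pathway were among the 11, but Atf4 itself was not called. Trib3, a pseudokinase that feeds back on Atf4, stood at 0.18, 0.23 and 0.04 in Irf5-KO arrays and -0.69, -0.74 and -0.83 in WT arrays. The 2 groups were each tight and lay well apart (0.91 ± 0.10, adjusted p = 0.000379). Chac1, which degrades glutathione, stood at 0.94, 1.05 and 0.66 in Irf5-KO arrays and -0.23, 0.01 and 0.28 in WT arrays. It rose by 0.86 ± 0.15 (adjusted p = 0.0105), and its call ended without Irf5-KO array 1 or 2 or WT array 1 (0.83, 0.78 and 0.74). Eif4ebp1, which restrains translation, rose by 0.41 ± 0.07 and the transcription factor gene Atf5 by 0.45 ± 0.08. Both lost their calls without Irf5-KO array 2 (0.38 and 0.40) or WT array 1 (0.38 for each).

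Gdf15, a stress-induced cytokine, rose by 0.98 ± 0.19, and its call ended without Irf5-KO array 1 or 2 or WT array 1 (1.03, 0.83 and 0.85). Vldlr, a lipoprotein receptor, rose by 1.00 ± 0.20, and its call ended without Irf5-KO array 2 or 3 or WT array 1 (0.91, 0.99 and 0.86) and after normexp correction (0.35). Atf4 stood between 6.67 and 6.72 in Irf5-KO arrays and between 6.64 and 6.71 in WT arrays (0.02 ± 0.06, adjusted p = 0.98). Ddit3, the transcription factor CHOP, was at 0.24 ± 0.09 (adjusted p = 0.296) and Sesn2, which senses leucine, at 0.05 ± 0.06 (adjusted p = 0.888). The count of 11 was 7, 3 and 8 without Irf5-KO array 1, 2 or 3 and 2, Asns and Trib3, without WT array 1.

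**Figure D1:**
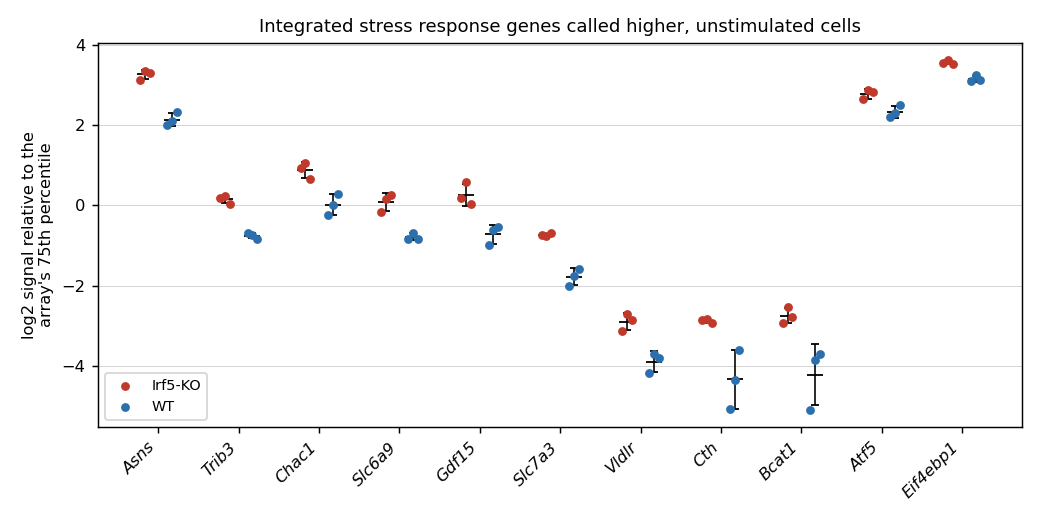
Levels of the 11 called integrated stress response genes on each array (log2 signal relative to the 75th percentile of the array); points are arrays, bars the mean ± SD of 3 arrays of unstimulated Irf5-KO (red, left) or WT cells (blue, right). The 3 Irf5-KO points lie above the 3 WT points for each gene, and the WT arrays of the dim genes Cth and Bcat1 spread most.

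Neighbouring stress pathways held 1 called gene. Of 24 chaperone and Xbp1 target genes of the endoplasmic reticulum, 1 rose, Derl3, a gene of protein disposal (0.78 ± 0.15), and the list median was 0.03. Its call ended without Irf5-KO array 1 or 2 or WT array 1 or 2 (0.77, 0.74, 0.64 and 0.73). Hspa5, the main chaperone of that compartment, was at 0.02 ± 0.08 (adjusted p = 0.983). Of 23 antioxidant genes of the Nrf2 pathway none was called (median 0.08).

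The same list was higher in a comparison with other arrays, DKO against Lyn-KO without stimulus, where 33 features were called in all (0.163%), 54 without DKO array 3 and 20 without Lyn-KO array 3. There 8 of the 47 genes rose and 0 fell (18 features, 0.0891% of all, were called higher and 15 lower, or 21 and 10 after normexp correction and quantile normalisation), with a median of 0.23, and 42 of the 47 were above 0. The count was 5 to 9 with 1 DKO or Lyn-KO array left out, with a median of 0.21 to 0.25. Asns was at 1.27 ± 0.11, Trib3 at 1.17 ± 0.10, Slc6a9 at 1.25 ± 0.16, Chac1 at 1.10 ± 0.15 and Eif4ebp1 at 0.41 ± 0.07, all called. Psat1 at 0.46 ± 0.08, Shmt2 at 0.39 ± 0.07 and the asparagine transfer RNA ligase gene Nars at 0.26 ± 0.05 completed the 8. Slc7a3 was at 0.00 ± 0.18 (adjusted p = 1) and Cth at -0.22 ± 0.27 (adjusted p = 0.995). Cth was not well above background on any of these DKO or Lyn-KO arrays, so its value says little about a change. No gene of the list passed the test of a difference between the Lyn-KO and the WT background.

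Interferon-induced genes lay lower, with few calls among those matched by symbol. Of 53 tested antiviral interferon-stimulated genes, 4 fell and 0 rose, against 0.421% of all features called lower. The median was -0.27 (-0.45, -0.28 and -0.11 between same-numbered arrays 1, 2 and 3). Of the 53, 50 were below 0, as were 11505 of the 20201 features. The mean level of the list was 1.89, 1.96 and 1.87 in Irf5-KO arrays and 2.53, 2.27 and 2.03 in WT arrays. The groups did not overlap, the Irf5-KO arrays lay close together, and WT array 1 stood highest. The called count was 15 without WT array 3, 2 without WT array 1 or 2, and 1, 2 and 1 without Irf5-KO array 1, 2 or 3.

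Ccl5, a chemokine for T cells that interferon also induces, stood at 6.69, 6.52 and 6.41 in Irf5-KO arrays and 7.48, 7.49 and 7.53 in WT arrays. The WT arrays were nearly level and the fall of -0.96 ± 0.15 was called (adjusted p = 0.00497). Ifit2, which binds viral RNA, stood at -2.06, -1.51 and -1.88 in Irf5-KO arrays and 0.28, -0.82 and -1.16 in WT arrays. The WT values covered a wide range, the change was -1.25 ± 0.25 (adjusted p = 0.0212), and it was not called without Irf5-KO array 1 or 3 (-1.13 and -1.22), and was -0.82 without WT array 1 and -0.80 after normexp correction. Ifih1, a cytosolic RNA sensor, fell by 0.42 on the log2 scale (SE 0.09, adjusted p = 0.0415) and Trim30a, an interferon-induced ubiquitin ligase, by 0.37 (SE 0.08, adjusted p = 0.0498). Both lost their calls without any 1 of the 6 arrays other than WT array 3 (-0.44 to -0.31 for Ifih1 and -0.37 to -0.24 for Trim30a), and with quantile normalisation (-0.40 and -0.37).

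The promoter of Ifih1 is shown because it holds an interferon response motif, with the letters GAAA, any 2 bases and GAAA again, searched on both strands, in capitals (RefSeq, GRCm38.p6, 5′ to 3′ on the strand of the gene).
Ifih1, chr2:62646206-62646505, minus strand: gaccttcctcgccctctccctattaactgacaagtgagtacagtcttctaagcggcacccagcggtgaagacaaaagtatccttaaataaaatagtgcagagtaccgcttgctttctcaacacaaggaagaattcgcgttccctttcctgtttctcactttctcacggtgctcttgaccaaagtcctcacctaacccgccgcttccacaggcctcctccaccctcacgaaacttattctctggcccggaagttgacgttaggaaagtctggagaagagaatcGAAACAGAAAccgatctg
The match began 32 bases after the start. The motif was found in 9 of the 45 called lower features with a promoter in the table (20%) and in 2 of the 40 called higher ones (5%), against 3.49% of all promoters. Ifih1 and Trim30a of the list were among the 9, with Trim34a, Mndal, Slfn8 and Ifit1bl1, which are named here after their values were seen. BC147527, Dpm1 and Krtap4-1 were the rest. Of the whole interferon-stimulated list, called or not, 18 of 45 genes with a promoter held the motif (40%).

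The other tested genes of the interferon-stimulated list were not called. Outside it, the dim Ifit1bl1 (-1.36 ± 0.28, adjusted p = 0.0269), Trim34a, Mndal and Slfn8 were called lower. So was Ifi209 (-0.57 ± 0.11, adjusted p = 0.0179), named here after its values were seen. Ifit3, a partner of Ifit2, stood at -0.44, 0.06 and -0.23 in Irf5-KO arrays and 2.09, 0.97 and 0.15 in WT arrays (-1.27 ± 0.30, adjusted p = 0.0543), the WT arrays differing widely among themselves. Of 16 listed interferon-inducible GTPases, 15 were matched to a probe by symbol, and 0 of these were called (limma, adjusted p). Called features without a symbol could not be matched to a list, and whether any is such a GTPase was not examined. The median of the 15 was -0.41, which was -0.29 without WT array 1 and -0.22 after normexp correction. Irf7 and Irf9, transcription factors of the interferon response, were at -0.42 ± 0.20 (adjusted p = 0.477) and -0.42 ± 0.11 (adjusted p = 0.0985). None of 14 interferon genes was called, 3 of which were not well above background on any of the 6 arrays, and Ifnb1 was at -0.45 ± 0.25 (adjusted p = 0.583).

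For DKO over Lyn-KO the interferon-stimulated list did not lie below 0. None of the 53 genes was called (limma, adjusted p), the median was 0.07 and 33 were above 0. DKO array 2 stood apart: the mean level of the list was 1.73, 2.00 and 1.52 in DKO arrays and 1.73, 1.62 and 1.65 in Lyn-KO arrays, and that of the GTPases -0.24, 0.72 and -0.44 in DKO and -0.33, -0.33 and -0.29 in Lyn-KO arrays. Without DKO array 2 the medians were -0.04 for the list, with 21 of 53 above 0 and 1 gene called lower, and -0.02 for the GTPases (0.32 with it). Ifit2 was at 0.28 ± 0.25 (adjusted p = 0.97), and the test of the difference from the WT background was not passed (1.53 ± 0.35, adjusted p = 0.171). It was passed by 1 gene of the list, Ifi44, an interferon-induced gene, which was at -0.98 for Irf5-KO over WT (adjusted p = 0.144) and at 1.18 for DKO over Lyn-KO (adjusted p = 0.124). That difference, 2.16 (adjusted p = 0.0493), was no longer called without DKO array 2 (1.94, adjusted p = 0.132) or 3 (2.06, adjusted p = 0.104), or without Lyn-KO array 1 (1.78, adjusted p = 0.0673) or 2 (2.27, adjusted p = 0.0795).

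**Figure D2:**
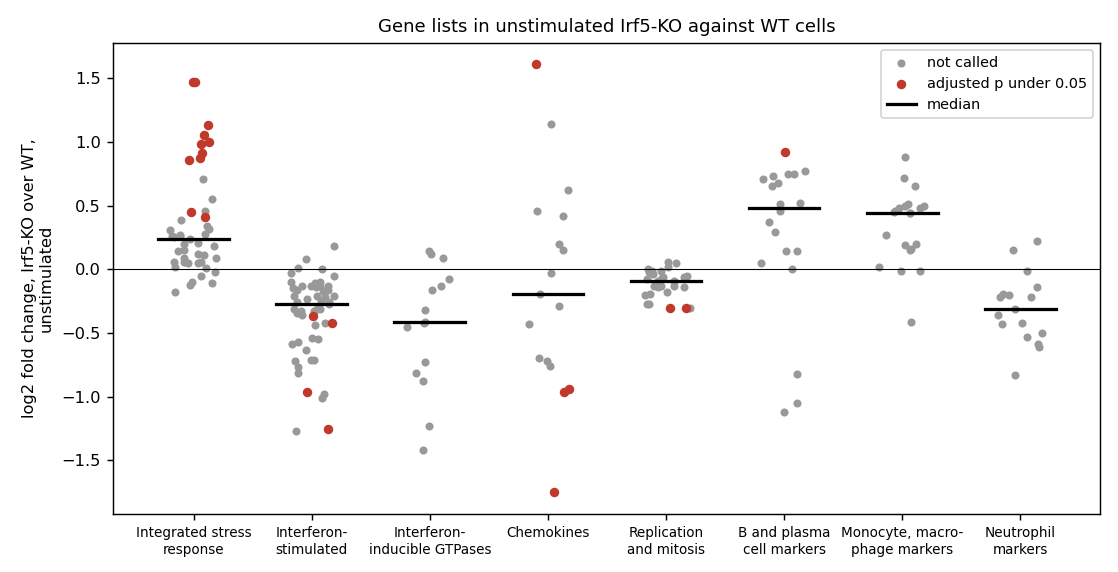
Log2 fold change of Irf5-KO over WT, unstimulated, for every tested gene of 8 gene lists; points are genes (red, adjusted p under 0.05) and bars the list median. The integrated stress response list has a median of 0.24 with 11 called genes, all above 0, and the interferon-stimulated list a median of -0.27 with 4 called genes, all below 0.

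Chemokine genes moved both ways. Of 17 tested, 3 fell, Xcl1, Ccl5 and Ccl4, and 1 rose, Cxcl1. This was 17.6% and 5.88%, against 0.421% and 0.317% of all features called lower and higher. Ccl5 was also 1 of the 4 called genes of the interferon-stimulated list. Xcl1, which attracts dendritic cells that bear Xcr1, stood at -3.29, -3.37 and -3.01 in Irf5-KO arrays and -1.21, -1.59 and -1.61 in WT arrays, a fall of -1.75 ± 0.28 (adjusted p = 0.00497). The groups lay far apart, and the change was -1.0 after normexp correction. Ccl4, an inflammatory chemokine, stood at 2.87, 3.08 and 2.85 in Irf5-KO arrays and 3.97, 3.83 and 3.83 in WT arrays (-0.94 ± 0.16, adjusted p = 0.00874), and was not called without WT array 1 (-0.89). Cxcl1, which attracts neutrophils, stood at -1.84, -1.52 and -2.15 in Irf5-KO arrays and -4.14, -2.82 and -3.38 in WT arrays. It rose by 1.61 ± 0.36 (adjusted p = 0.0454), and of the 6 removals of 1 array only that of WT array 2 kept the call (1.27 to 1.77 in the others).

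Ccl4 and Ccl5 are neighbours on chromosome 11. In DKO against Lyn-KO arrays they were at -0.76 ± 0.16 (adjusted p = 0.076) and -0.73 ± 0.15 (adjusted p = 0.0624), and Xcl1 was at -0.56 ± 0.28 (adjusted p = 0.776). None passed the test of a difference between the backgrounds.

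Among cytokine genes, Il10, which restrains inflammation, was the 1 of 18 to be called. It stood at -0.83, -0.48 and -0.91 in Irf5-KO arrays and -2.44, -1.93 and -1.61 in WT arrays. All Irf5-KO arrays lay above the WT arrays, a rise of 1.25 ± 0.19 or 2.38-fold (adjusted p = 0.0033). Il6, a target of Irf5 in stimulated cells, stood at -0.28, -0.06 and -0.27 in Irf5-KO arrays and 0.35, 0.32 and 0.29 in WT arrays, and its change of -0.53 ± 0.12 missed the threshold (adjusted p = 0.052). Tnf was at 0.28 ± 0.17 (adjusted p = 0.625).

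Cd70, a costimulatory ligand of the TNF family, stood at 0.16, 0.38 and -0.21 in Irf5-KO arrays and -1.06, -0.97 and -0.58 in WT arrays (0.98 ± 0.12, adjusted p = 0.000791). Irf4, a related transcription factor of B cells and type 2 conventional dendritic cells, stood at 2.68, 2.62 and 2.38 in Irf5-KO arrays and 1.74, 2.00 and 2.17 in WT arrays (0.59 ± 0.10, adjusted p = 0.00734). The groups did not overlap for either gene. Sytl3, a gene of vesicle transport, was nearly level in Irf5-KO arrays at -0.75, -0.72 and -0.73, against -2.50, -1.98 and -1.74 in WT arrays (1.35 ± 0.19, adjusted p = 0.00221).

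Markers of B cells stood higher alongside these genes. Of 20 tested markers, 1 rose, Vpreb3, a gene of B cell precursors (0.92 ± 0.20, adjusted p = 0.0402), whose call was kept of the 6 removals of 1 array only without WT array 3 (0.79 to 0.96 in the others). The list median was 0.48 (0.73, 0.79 and 0.03 between same-numbered arrays 1, 2 and 3). Of the 20 markers, 12 were higher in all Irf5-KO than in all WT arrays, as for 6.1% of all features. Their summed linear signal, in units of the 75th percentile, was 237 to 271 in Irf5-KO arrays and 184 to 236 in WT arrays. Ms4a1, a B cell surface protein, was at 0.73 ± 0.19 (adjusted p = 0.0958) and lay above the WT values on every Irf5-KO array. Il10, Cd70, Irf4 and Sytl3 had mean levels of -4.53, -1.89, 1.45 and -3.07 in DKO and -4.69, -2.03, 1.45 and -3.49 in Lyn-KO arrays, below both groups described here. Il10 was not well above background on any of these DKO or Lyn-KO arrays, and Sytl3 was so on 2 arrays of each group. The marker list was likewise lower in DKO and Lyn-KO arrays (-0.65 to -0.37 in DKO and -0.62 to -0.49 in Lyn-KO arrays, against 1.47 to 1.88 in Irf5-KO and 1.24 to 1.67 in WT arrays). The part of B cells in the changes of Il10, Cd70, Irf4 and Sytl3 was not tested. In whole cultures, fewer cells of a type and less RNA per cell cannot be told apart.

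Markers of other cells had few calls. Monocyte and macrophage markers had a median of 0.44 with 0 of 21 called, and 12 were higher and 1 lower without overlap, as were 6.1% and 11.9% of all features (the median was 0.25 without Irf5-KO array 2 and after normexp correction), with a summed signal of 279 to 305 in Irf5-KO and 239 to 255 in WT arrays. Neutrophil markers had a median of -0.31 with 0 of 17 called, and basophil and mast cell markers one of -0.51 with 0 of 10 called. The medians of the plasmacytoid and of the type 1 and type 2 conventional dendritic cell markers lay between -0.04 and 0.02. Of these, Klk1, a serine protease gene, fell (-0.92 ± 0.20, adjusted p = 0.0339), a call that rested on each array but WT array 3 (-0.98 to -0.85) and ended after normexp correction (-0.52). Irf4 was the 1 that rose. None of 27 Toll-like receptor, adaptor and kinase genes was called, with Tlr9 at 0.02 ± 0.06 (adjusted p = 0.978).

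**Figure D3:**
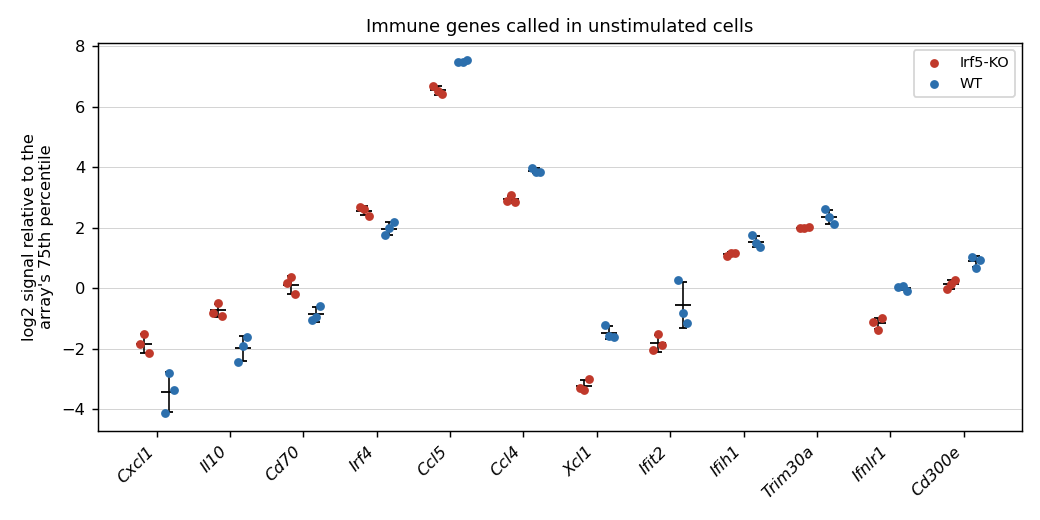
Levels of 12 called immune genes on each array (log2 signal relative to the 75th percentile of the array); points are arrays, bars the mean ± SD of 3 arrays of unstimulated Irf5-KO (red, left) or WT cells (blue, right). Cxcl1, Il10, Cd70 and Irf4 are higher in Irf5-KO arrays, the other 8 are lower, and the WT arrays of Ifit2 range from -1.16 to 0.28.

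Receptor, enzyme and transcription factor genes were among the lower ones. Hsd11b1, which activates glucocorticoids, stood at -2.27, -2.38 and -2.67 in Irf5-KO arrays and -1.30, -1.31 and -1.18 in WT arrays (-1.18 ± 0.17, adjusted p = 0.00221, or -0.66 after normexp correction). Ifnlr1, a subunit of the receptor for interferon lambda, stood at -1.12, -1.38 and -1.0 in Irf5-KO arrays and 0.02, 0.07 and -0.08 in WT arrays (-1.17 ± 0.21, adjusted p = 0.00954). Each WT array lay above each Irf5-KO array for both genes, but Ifnlr1 was not called without Irf5-KO array 2 or WT array 1 (-1.07 and -1.16). Cd300e, an activating receptor of myeloid cells, stood at -0.03, 0.12 and 0.27 in Irf5-KO arrays and 1.04, 0.67 and 0.93 in WT arrays (-0.76 ± 0.12, adjusted p = 0.00509). Insm1, a zinc-finger transcription factor, fell (-0.74 ± 0.13), and was not called without Irf5-KO array 2 or 3 or WT array 1 (-0.75, -0.68 and -0.75).

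Fam89a stood at -4.46, -4.13 and -4.81 in Irf5-KO arrays, where it was not well above background on any array, and at -1.70, -1.81 and -1.93 in WT arrays. It was at least 3.63-fold lower (adjusted p = 5.74e-05), and its change was -0.95 after normexp correction. The bound takes, for each dim array, its faintest signal still well above background, or the signal of the gene if that was higher, and compares the bright group with the mean of these.

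Syt10, a calcium sensor of vesicle release, stood at 0.21, -0.06 and -0.46 in Irf5-KO arrays and at -4.46, -4.25 and -4.12 in WT arrays, where it was not well above background. It was at least 10.6-fold higher (adjusted p = 0.00756), a call that ended after normexp correction (2.13). Its mean level was 0.29 in DKO, 1.02 in Lyn-KO and, with CpG-B, -1.12 in Irf5-KO, -4.55 in WT, -0.27 in DKO and 0.77 in Lyn-KO arrays, so that the 6 WT arrays stood apart from the other 18. DKO against Lyn-KO arrays differed by -0.73 ± 0.71 (adjusted p = 0.982), and the test of the difference between backgrounds gave -4.90 ± 1.00 (adjusted p = 0.0926). Entpd4, a Golgi nucleotide-hydrolysing enzyme named here after its values were seen, was also lowest in WT among the 4 resting genotypes, at 3.08, 3.00 and 3.01 in Irf5-KO and 2.68, 2.60 and 2.66 in WT arrays (0.39 ± 0.06, adjusted p = 0.00221).

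Position along the genome was examined because genes that lie near a targeted locus travel with it in breeding. Within 20 Mb of Irf5 on chromosome 6, 1 of 125 named genes was called (0.8%), against 114 of the 12640 features with a symbol (0.902%). This was Arf5, a small GTPase of membrane traffic, which lies 1.11 Mb from Irf5. It stood at 3.20, 3.37 and 3.32 in Irf5-KO arrays and 4.15, 4.22 and 4.29 in WT arrays (-0.93 ± 0.12, adjusted p = 0.00119). The groups lay far apart, and Arf5 was also the 1 gene called in this window in DKO against Lyn-KO arrays (-0.88 ± 0.12, adjusted p = 0.00196). The count was 1 of 61 genes within 10 Mb and 2 of 201 within 40 Mb, where Asns, 21.8 Mb from Irf5, was the other gene. Called transcripts without a name were not in these counts. By the annotation of the array (mm9), 3 of them lay on chromosome 6 and all were lower in Irf5-KO arrays, at chr6:3333825-3349525 (-0.39 ± 0.07, adjusted p = 0.0154), chr6:47707763-47714574 (-0.54 ± 0.11, adjusted p = 0.0225) and chr6:90915489-90940052 (-0.55 ± 0.12, adjusted p = 0.0359), and their distances from Irf5 were not computed.

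A stretch of chromosome 10, singled out after its values were seen, held 5 called genes that all rose. Gstt1, Gstt2 and Gstt3, glutathione transferases that detoxify reactive compounds, lie there beside Derl3 and Vpreb3. Gstt2 stood at 0.36, 0.32 and 0.09 in Irf5-KO arrays and -0.80, -0.69 and -0.31 in WT arrays (0.86 ± 0.11, adjusted p = 0.00119). Gstt3 rose by 0.47 ± 0.06 and Gstt1 by 0.48 ± 0.10, for which single arrays were not left out. Of 15 tested genes from 0.2 Mb before to 0.2 Mb after the 5, these 5 rose and 0 fell, while the other 10 lay between -0.38 (Ggt5) and 0.33 (Chchd10). In DKO against Lyn-KO arrays at rest Gstt2 was at 0.31 ± 0.11 (adjusted p = 0.483) and 1 of the 15, Derl3, was called. With CpG-B, 9 of the 15, the 5 among them, were called higher in Irf5-KO against WT arrays and 1 lower (14.4% and 11.1% of all features). In DKO against Lyn-KO arrays with CpG-B, 7 were called higher, Gstt1, Gstt2 and Gstt3 among them, and 1 lower (16.8% and 14.7% of all). Derl3 and Vpreb3 were not called there. The 5 were singled out by their calls at rest, and all arrays set the spread. Counts that include them are therefore not strictly comparable with the shares of all features. Probes of related family members may bind each other's transcripts, which was not tested.

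**Figure D4:**
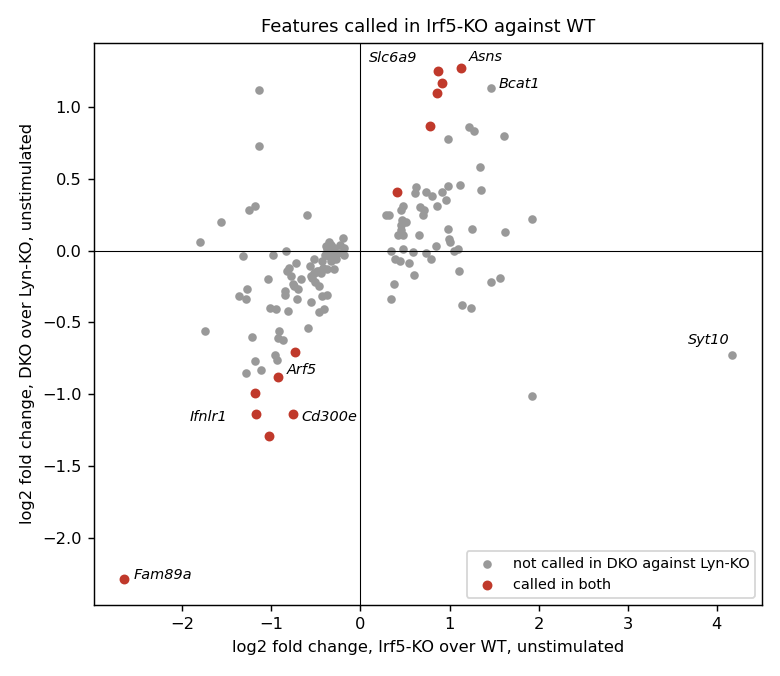
Log2 fold change of the 149 called features in Irf5-KO over WT (x) and in DKO over Lyn-KO (y), all unstimulated and without a shared array; each point is a feature, red where it was called in both. The 13 red points lie in the upper right and lower left, and Syt10 lies far right at -0.73 on the y axis.

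Set against the arrays that share none with the 6, most called features had the same sign. Of the 64 higher features, 46 were above 0 in DKO against Lyn-KO arrays (71.9%, against 42.9% of all features) and 6 were called there. Of the 85 lower features, 69 were below 0 (81.2%, against 57.1% of all) and 7 were called (0.0743% of all were called lower). The median changes there were 0.20 for the higher and -0.16 for the lower features. All arrays set the spread of a feature, and a small spread eases calls in both comparisons. The shares called are therefore not strictly comparable with those of all features, whereas the signs do not rest on the spread. The test of the difference between backgrounds was passed by 9 of the 149, as by 17 features in all (0.0842%, and 28 without WT array 3), a test that shares the 6 arrays. The effect averaged over both backgrounds gave 222 calls (1.1%), 103 higher and 119 lower, or 122 and 83 with the scaling to the median. The count was 97 and 142 without Irf5-KO array 2 or 1, 105 without WT array 1, 123 without DKO array 1, and 117 and 147 without Lyn-KO array 1 or 2.

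With CpG-B the Irf5-KO and WT arrays, again other arrays, differed in 5152 features (25.5%). Of the 64 features higher at rest, 38 were called higher and 11 lower with CpG-B, and of the 85 lower at rest, 46 were called lower and 4 higher (14.4% and 11.1% of all features were called higher and lower). Here too the spread of a feature was set by all arrays, so these shares called are not strictly comparable with those of all features. By sign, 46 of the 64 were above 0 with CpG-B (71.9%, against 53% of all features). Of the 85, 66 were below 0 (77.6%, against 47%). Asns was at 1.11 ± 0.11 and Arf5 at -0.73 ± 0.12 with CpG-B. Fam89a and Hsd11b1, lower at rest, were at -4.63 and -4.75 with CpG-B. Ifnlr1 was then not well above background on any Irf5-KO array, and was at least 15-fold lower. Xcl1 was at -5.71, but was well above background on only 1 of the 3 Irf5-KO arrays. The test of the difference between CpG-B and rest was passed by 63 of the 149 (42.3%), Hsd11b1 among them, against 12.6% of all features. That test shares the 6 arrays by which the 149 were chosen, so its share among them is not comparable with that of all features. Il10 turned round, at -1.10 ± 0.19 with CpG-B, and so did Irf4, at -0.41 ± 0.10, and Slc7a3, at -1.91 ± 0.18. Ifit2 was at 0.36 ± 0.25 (adjusted p = 0.339).

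Many of the called features were raised by CpG-B. In Lyn-KO cells, whose arrays share none with the 6, CpG-B raised 60 of the 85 lower features (70.6%) and 42 of the 64 higher features (65.6%). It lowered 18 of the 85 (21.2%) and 7 of the 64 (10.9%). Of all features, 32.8% were raised and 36.1% lowered. These shares are not strictly comparable, because all arrays set the spread of a feature, and a small spread eases calls at rest and here alike. By sign, which does not rest on the spread, 66 of the 85 (77.6%) and 49 of the 64 (76.6%) were above 0, against 49.7% of all features. The same sign in all 4 comparisons of Irf5 loss was found for 77 of the 149 (51.7%), against 24.9% of all features. In all 4 comparisons, of which DKO against Lyn-KO with CpG-B called 31.5% of all features, 11 were called with 1 sign: Asns, Trib3, Chac1 and Eif4ebp1 higher, and Fam89a, Hsd11b1, Ifnlr1, Arf5, Cd300e, Insm1 and 1 unnamed probe lower.

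**Figure D5:**
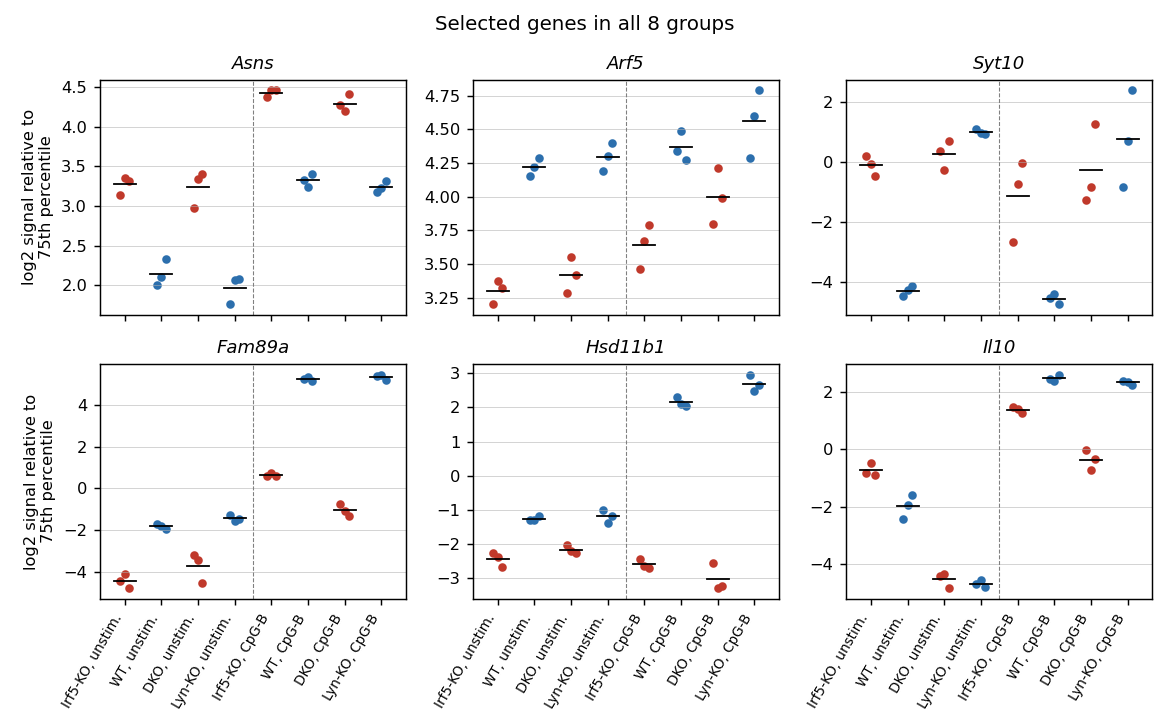
Levels of 6 genes in all 8 groups (log2 signal relative to the 75th percentile of the array); points are arrays, bars group means, red groups lack Irf5, and CpG-B groups stand right of the dashed line. Asns is higher and Arf5 lower in every group without Irf5 than in the group to its right, and Syt10 is low only in WT. Il10 averages -4.53 and -4.69 in unstimulated DKO and Lyn-KO arrays, where it is not well above background on any array.

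Of 29 replication and mitosis genes, 2 fell and 0 rose (6.9%, against 0.421% of all features called lower). The list median was -0.09 (-0.01, -0.12 and -0.19 between same-numbered arrays 1, 2 and 3), and 25 were below 0. In DKO against Lyn-KO arrays 0 were called, the median was 0.01 and 16 were above 0. Aurka, a mitotic kinase, stood at 2.31, 2.29 and 2.28 in Irf5-KO arrays and 2.53, 2.61 and 2.64 in WT arrays (-0.30 ± 0.06, adjusted p = 0.0138), and was not called without Irf5-KO array 2 or 3 (-0.30 and -0.29). Cenpe, a kinetochore motor, fell too (-0.30 ± 0.07, adjusted p = 0.0359), and its call ended on leaving out any 1 of the 6 arrays (-0.32 to -0.29). Mki67 was at -0.07 ± 0.07 (adjusted p = 0.862). No sterol synthesis, glycolysis or MHC class II gene was called, of 23, 23 and 10 tested. Mt2, a metal-binding stress protein, stood at 3.88, 4.4 and 4.14 in Irf5-KO arrays and 2.69, 2.88 and 3.18 in WT arrays (1.22 ± 0.21, adjusted p = 0.00742), and lost its call without Irf5-KO array 2 or WT array 1 (1.09 and 1.11).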

How the data were processed

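Total RNA of 24 cultures (8 groups of 3) was hybridised to 1-colour Agilent arrays, 1 array of each group for each of 3 replicate numbers. The deposited values are background-subtracted spot intensities, which per the file headers came from Agilent Feature Extraction 10.7.3.1, with array annotation of build mm9. The deposited table of the whole series holds log2 values of the same arrays and served as an alternative. From the intensities, log2 signal minus the 75th percentile of each array was taken. Control spots and 4351 flagged spot values were dropped and repeat spots averaged. A probe was kept if some group had it well above background on its 3 arrays (26629 of 55681). The probe with the highest mean stood for its gene, which left 20201 features, 12640 of them with a symbol. limma 3.58.1 in R 4.3.3 fitted 1 mean per group to all 24 arrays, with Benjamini-Hochberg adjustment over all features, and the scripts were tested on simulated data.

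Genes could be named if on a gene list, or called within 20 Mb of Irf5, or Irf5, Lyn or Dock2. So could called genes with a symbol among the 20 largest changes each way, detected on each array of the brighter group and without overlap. Not all of these were described. Those left out included Tnn (1.93), Pcolce2 (1.62), Rusc2 (1.34) and Inhba (1.12), which were higher. Cracdl (-1.04), Evpl (-1.01) and Duxbl2 (-0.95), which were lower, were also left out. The gene lists and comparisons were chosen with earlier results of these data known. Alternatives were quantile normalisation, normexp background correction, median scaling, the deposited table, other probe filters, a replicate block, fits to fewer arrays, array weights, another variance prior and leaving out each array. Promoters came from RefSeq (GRCm38.p6).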

Additional observations from a re-analysis of the deposited data

Results flagged for a closer look

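Of 41 genes followed through every alternative, 15 had an effect of Irf5 loss that differed between CpG-B and rest by a test of the difference itself (limma, Benjamini-Hochberg over all features, 3 arrays per group). In all, 2554 features passed this test, 63 of them among the 149 called at rest, but the test shares the 6 arrays that gave the 149. Cth, Fam89a and Ifnlr1 also passed, but 1 of their groups was not well above background on any array, so that their differences have only bounds and are not given. Each value is the log2 change of Irf5-KO over WT with CpG-B minus that at rest. Among genes higher at rest, the difference was -2.95 for Slc7a3 (adjusted p = 2.36e-07), -2.35 for Il10 (adjusted p = 6.83e-06), -2.15 for Bcat1 (adjusted p = 0.00143), -1.0 for Irf4 (adjusted p = 5.73e-05), -1.0 for Mt2 (adjusted p = 0.0289) and -0.90 for Slc6a9 (adjusted p = 0.0105). Il10 was well above background on 2 of 3 resting WT arrays, and Bcat1 on 2 of 3 resting Irf5-KO and 1 of 3 resting WT arrays. Entpd4 went the other way, at 0.73 (adjusted p = 3.73e-06).

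Among genes lower at rest, the difference was -3.96 for Xcl1 (adjusted p = 1.42e-06), -3.57 for Hsd11b1 (adjusted p = 1.21e-08), -2.22 for Klk1 (adjusted p = 1.92e-05), -1.97 for Klk1b5, a kallikrein gene beside Klk1 (adjusted p = 8.96e-05), and -1.09 for Cd300e (adjusted p = 0.000206). Xcl1 was well above background on 2 of 3 Irf5-KO arrays at rest and on 1 of 3 with CpG-B. The difference was 1.60 for Ifit2 (adjusted p = 0.00392) and 0.63 for Ifih1 (adjusted p = 0.00268). The probe of Irf5 gave 0.94 (adjusted p = 4.85e-05): it was at -0.30 ± 0.09 at rest and 0.64 ± 0.09 with CpG-B (adjusted p = 2.8e-05), so that after CpG-B the signal was higher in Irf5-KO than in WT arrays.

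The test of a difference in the resting effect of Irf5 loss between the Lyn-KO and the WT background was passed by 17 features, 9 of them among the 149, and by 3 of the 41 genes. The difference was 2.31 for Mcpt8, a basophil protease gene (adjusted p = 0.0134), 2.16 for Ifi44 (adjusted p = 0.0493, and 0.0673 to 0.132 without DKO array 2 or 3 or Lyn-KO array 1 or 2) and -0.45 for Entpd4 (adjusted p = 0.0308). Mcpt8 was at -1.11 in Irf5-KO against WT (adjusted p = 0.0587) and 1.19 in DKO against Lyn-KO arrays (adjusted p = 0.0874), and the basophil and mast cell markers had medians of -0.51 and 0.82 in these comparisons. Their part in the Mcpt8 value was not tested.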

How the results depend on the processing

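The count of called features depended on how many arrays set the spread. For Irf5-KO against WT at rest (149) it was 74 with no filter on dim probes, 47 with the 12 unstimulated arrays, 369 with array weights, 1 with the 6 arrays alone and 46 to 184 with 1 array left out. For DKO against Lyn-KO (33) it was 52 with quantile normalisation, 21 with no filter, 21 with probes detected on all arrays, 17 with 12 arrays, 75 with weights, 0 with the arrays compared (1350 passed at an unadjusted p under 0.05 in the fit of 24) and 20 to 54 with 1 array left out. For the averaged effect (222) it was 90 with no filter, 74 with the 12 arrays, 453 with weights and 97 to 236. For the difference between backgrounds (17) it was 10 with no filter, 6 with probes detected on all arrays, 3 with the 12 arrays, 40 with weights and 12 to 28. The CpG-B comparison (5152) and the difference from rest (2554) stayed within 1.5 times of these counts. With 1 array left out, the stress response count was 2 to 11 and the interferon-stimulated count 1 to 15, and the count near Irf5 was 2 within 40 Mb. None of the 41 genes changed sign for Irf5-KO against WT at rest under an alternative that was run. For DKO against Lyn-KO, 2 list medians did change sign without DKO array 2. The interferon-stimulated median went from 0.07 to -0.04 and that of the GTPases from 0.32 to -0.02. The median residual SD was 0.134 with 24 and 0.114 with 6 arrays, with 17.9 and 5.83 total degrees of freedom.

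Replicate numbers are shared by the groups, and deviations of same-numbered Irf5-KO and WT arrays correlated at 0.14, 0.17 and -0.03, so the pairing was not borne out. With the replicate block the counts were 181 (143 of them among the 149), 39, 299 and 20 in the order above, and Vpreb3 and Trim30a were no longer called. The values of the stress response, interferon and GTPase lists and of Ifi44 with a DKO or Lyn-KO array left out were added after seeing the data.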

Other observations

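Of the 149 called features, 35 had no symbol, and 12 of these carry genome coordinates of the array design (mm9). A transcript at chr12:81221532-81232030 stood at -0.58, -0.68 and -0.61 in Irf5-KO arrays and -1.51, -1.79 and -1.98 in WT arrays, a rise of 1.14 ± 0.16 (limma, adjusted p = 0.00249) that was as large with CpG-B (1.16 ± 0.16) but was -0.38 ± 0.16 in DKO against Lyn-KO arrays (adjusted p = 0.676). A transcript at chr11:119254413-119296960 stood at -1.17, -0.99 and -0.97 in Irf5-KO arrays and 0.62, -0.14 and -0.66 in WT arrays (-0.98 ± 0.20, adjusted p = 0.0223), with the WT arrays spread as for Ifit2. Chromosome 1 held 16 called genes of 725 tested (2.21%), the highest share of any chromosome.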
